A study of Mus musculus with 14 samples.

Results

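Interferon-stimulated genes are the genes that cells switch on when an interferon binds its receptor. Here they are a set of 45 genes, taken by symbol from the 54347 genes of each deposited table: 10 of type I type (the Ifit, Oas and Mx members), 9 of interferon-gamma type (the Gbp members, Irgm1, Irgm2 and Cxcl9) and 26 others. All 45 symbols occurred once in every table, and the rule for membership is the symbol alone, with no cut-off on a measured value, although the list was drawn up with earlier results of these data known. Their levels were compared within each of 3 mouse lung experiments that had separate controls, 14 libraries in all.

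All mice were C57BL/6, and all of them, controls included, received the fungal allergen Alternaria alternata intranasally over 4 days (40 µl with 2 mg each time). In the first experiment irradiated WT recipients (n = 2) or recipients of genotype human JAK1 GOF (gain of function, n = 2) were given 10000000 live WT bone marrow cells each within 24 hours, so the marrow was WT in both groups and the genotype differed in the host only. In the second, WT mice were injected intrathecally with RTX (resiniferatoxin, a TRPV1 agonist that destroys sensory neurons carrying this channel) at 25 ng per mouse on 2 days (n = 3) or with 10 µl saline (n = 2), a denervation of spinal visceral afferents. In the third, WT mice had 3 daily subcutaneous injections, of RTX in steps of 30, 70 and 100 µg/kg (n = 3) or of 100 µl saline (n = 2), a denervation that reaches vagal afferents as well as spinal ones. The labels give neither the promoter of the human JAK1 allele, nor the share of host blood cells left after irradiation, nor the age of the mice. Whether each library is a mouse of its own is not stated either, so the p-values speak only for the spread among these samples, which may be technical.

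Type I interferons (the alpha and beta interferons) signal through IFNAR1 and IFNAR2 with the kinases JAK1 and TYK2, and a transcription factor complex that includes IRF9 then binds the interferon-stimulated response element (ISRE). Interferon gamma, made by T cells, natural killer cells and innate lymphoid cells, signals through IFNGR1 and IFNGR2 with JAK1 and JAK2 and acts on its targets through the gamma-activated site (GAS). The 2 programmes overlap: Ifit, Oas and Mx genes encode antiviral proteins that respond mainly to type I interferon, while the guanylate-binding proteins (Gbp), the immunity-related GTPases (Irgm1, Irgm2, Igtp, Iigp1) and the chemokine Cxcl9 respond strongly to interferon gamma. In allergic lung disease interferon gamma is known as an antagonist of type 2 responses.

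The binding letters of both pathways were looked for in RefSeq promoters (GRCm38.p6) of 250 bases before the start of transcription. The ISRE letters searched were GAAA, any 2 bases and GAAA again, on either strand, and the GAS letters were TTC, any 3 bases and GAA, a form that reads the same on both strands. Of the 45 members 33 had an entry in the promoter table, and 17 of them (51.5%) held the ISRE letters, beside 2.98% of all 32851 promoters. The GAS letters were in 9 of 33 (27.3%), beside 7.02% of all promoters. Members were counted by gene, with a match in either promoter enough for the 5 that had 2, while all promoters were counted singly. Of the members of type I type 4 of 7 held the ISRE letters and 2 of 7 the GAS letters, and of those of gamma type 6 of 7 and 3 of 7. A match is a description of letters and not a bound site. The 4 sequences that follow are shown because they carry the ISRE letters in members that the results below turn on or, for Isg15, in 3 overlapping copies. Each is the 160 bases before the start, 5′ to 3′ on the gene's strand, with every ISRE or GAS match in capitals (TTTC, any 2 bases and TTTC is the ISRE on the other strand), and in Bst2 the GAS letters run into the ISRE letters.
Isg15, chr4:156200819-156200978, minus strand: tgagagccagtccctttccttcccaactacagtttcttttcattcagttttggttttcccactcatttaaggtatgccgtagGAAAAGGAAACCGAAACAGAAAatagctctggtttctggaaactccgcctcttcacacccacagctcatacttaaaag
Ifit3, chr19:34583369-34583528, plus strand: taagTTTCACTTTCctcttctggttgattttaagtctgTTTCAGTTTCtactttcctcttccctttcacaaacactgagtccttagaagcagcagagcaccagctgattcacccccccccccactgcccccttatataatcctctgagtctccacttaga
Oas1a, chr5:120907526-120907685, minus strand: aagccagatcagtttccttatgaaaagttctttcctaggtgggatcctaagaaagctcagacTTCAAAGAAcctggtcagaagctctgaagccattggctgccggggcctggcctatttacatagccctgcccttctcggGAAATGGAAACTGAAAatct
Bst2, chr8:71537473-71537632, minus strand: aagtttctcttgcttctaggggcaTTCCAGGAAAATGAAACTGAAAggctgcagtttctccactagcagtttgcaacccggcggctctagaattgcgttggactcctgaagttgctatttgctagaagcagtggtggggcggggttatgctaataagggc

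The next 4 hold the GAS letters and stand in Gbp7, Irgm2, Igtp and Irf1, the first 3 of which also carry the ISRE letters. In Irgm2 and Igtp, neighbours on chromosome 11 whose annotations overlap, the GAS letters and the ISRE letters were separated by 2 bases and began 75 and 45 bases before the start. In Irf1, the transcription factor that relays interferon gamma to its secondary targets, the GAS letters began 90 bases before the start and no ISRE letters were found in the 250 bases.
Gbp7, chr3:142530176-142530335, plus strand: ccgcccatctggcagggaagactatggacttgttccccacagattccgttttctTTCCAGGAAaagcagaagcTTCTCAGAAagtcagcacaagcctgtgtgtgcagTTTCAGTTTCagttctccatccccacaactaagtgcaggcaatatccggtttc
Irgm2, chr11:58214817-58214976, plus strand: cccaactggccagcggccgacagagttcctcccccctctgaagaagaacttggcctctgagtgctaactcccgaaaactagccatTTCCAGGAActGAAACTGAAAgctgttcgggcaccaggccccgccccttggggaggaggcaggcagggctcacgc
Igtp, chr11:58199396-58199555, plus strand: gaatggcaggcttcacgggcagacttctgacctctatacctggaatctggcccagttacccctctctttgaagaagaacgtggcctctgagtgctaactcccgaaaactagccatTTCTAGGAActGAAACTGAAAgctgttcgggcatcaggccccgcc
Irf1, chr11:53769854-53770013, plus strand: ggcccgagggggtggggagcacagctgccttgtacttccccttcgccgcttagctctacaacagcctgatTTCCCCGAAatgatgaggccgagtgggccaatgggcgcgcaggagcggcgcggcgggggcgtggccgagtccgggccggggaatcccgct

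All 45 members were expressed in every library. The lowest value was 2.75 CPM (counts per 1000000 counts of the library), against a floor of 3 counts that lies between 0.123 and 0.165 CPM, and the highest was 349 CPM. Per kilobase of annotated exon, the scale on which genes can be compared, Ifitm3, a membrane protein that blocks virus entry, was highest with a median of 448 CPM per kilobase over 14 libraries. Bst2 (tetherin, which holds budding virus at the cell surface) followed at 100.0, Ifit3 (an IFIT protein of the complex that binds foreign RNA) at 43.9, Gbp2 at 40.1 and Irf1 at 35.8 CPM per kilobase. The ranges of Ifitm3 and Bst2 did not overlap each other or those of any other member, while those of Ifit3, Gbp2 and Irf1 overlapped. At the lower end stood Oas3 at 1.51, Mx2 at 0.983 and Ddx60, a helicase of the RNA sensing pathway, at 0.694 CPM per kilobase.

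**Figure D1:**
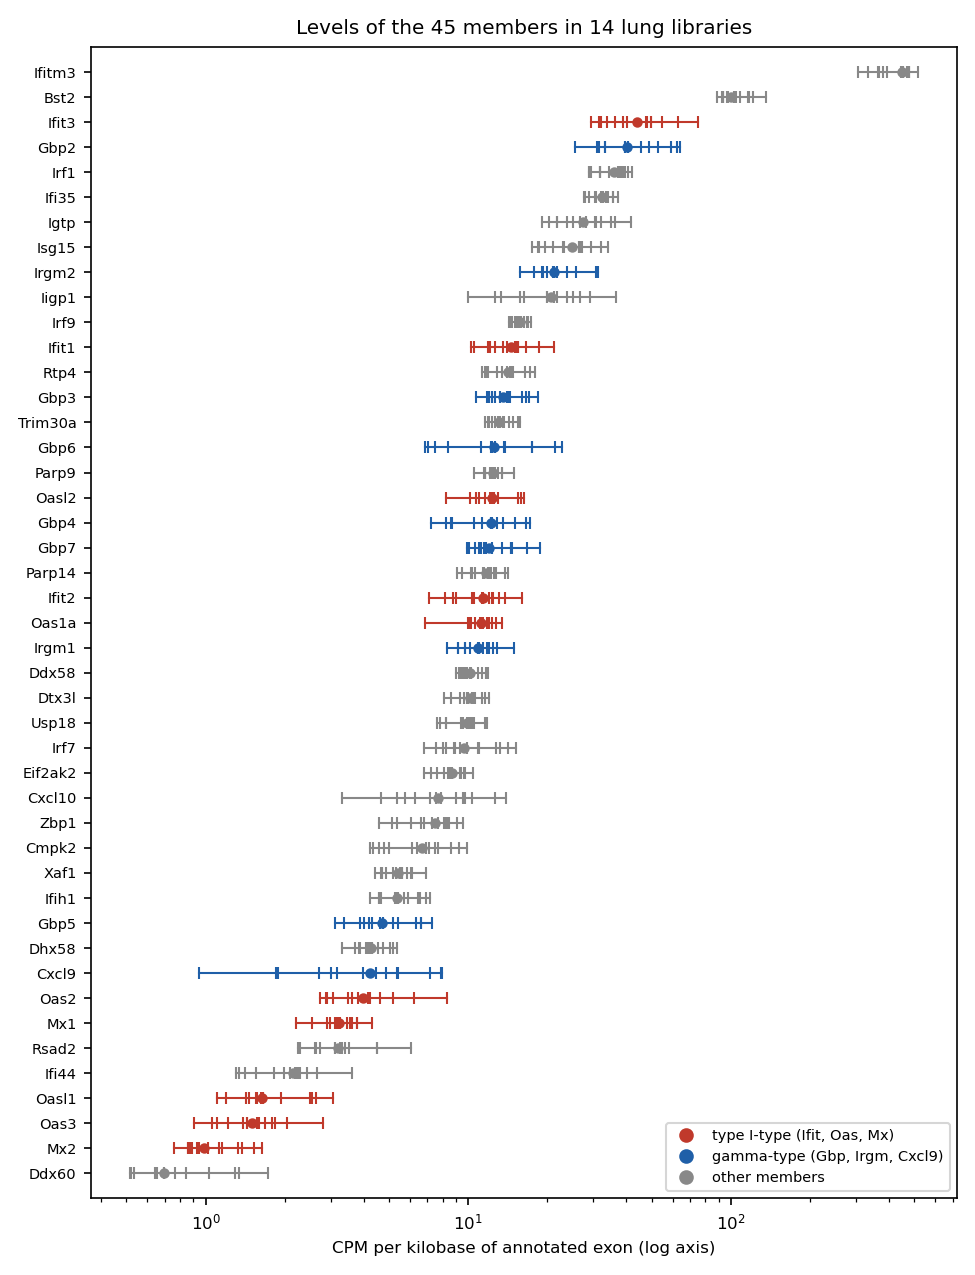
Level of each of the 45 members in CPM per kilobase of annotated exon on a log axis; ticks are the 14 libraries, the dot is their median and the colour is the class. Ifitm3 (median 448) and Bst2 (median 100.0) lie apart at the top, and Cxcl9 has the widest range.

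The members differed in how far they moved across the 14 libraries. Cxcl9, a chemokine that draws CXCR3-bearing T cells, had the widest span, 8.40-fold from its lowest library (JAK1 GOF recipient 2) to its highest (intrathecal vehicle 1). Cxcl10, its neighbour and fellow CXCR3 ligand, spanned 4.18-fold, Iigp1, a GTPase that disrupts the vacuoles of intracellular parasites, 3.66-fold, and Gbp6 3.34-fold. The steadiest were Irf9, the DNA-binding subunit of the type I complex, at 1.22-fold and Ddx58, which encodes the RNA sensor RIG-I, at 1.32-fold. Values pool all groups and experiments.

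The libraries held 18198872 to 24393000 counts. They fell apart by 2 trace transcripts, Rps3a2 and Hmga2, split at 2 CPM each. The split followed the groups in the intrathecal experiment and only in part in the other experiments. Rps3a2 was above that level in WT recipient 1, both intrathecal vehicle libraries and subcutaneous RTX 2 and 3. Only Hmga2 was above it in WT recipient 2, both JAK1 GOF recipients, all 3 intrathecal RTX libraries and subcutaneous vehicle 1, and neither in subcutaneous vehicle 2 and subcutaneous RTX 1. In the intrathecal experiment this split and the treatment cannot be told apart. No intrathecal result can be given within 1 state, since both vehicle libraries are in one and all 3 RTX libraries in the other. All 9 lung markers (such as the surfactant genes Sftpc and Sftpb) were present, with a summed level of 17623 to 32686 CPM.

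In JAK1 GOF recipients the gamma-type members were lower than in WT recipients, and the type I-type members had no common direction, but no member passed the test. The gamma-type difference came mostly from WT recipient 2, as given below. The median log2 fold change (GOF minus WT) was −0.32 over the 9 gamma-type members, all of which were negative, and −0.03 over the 10 type I-type members, 5 of them positive. Over all 45 members it was −0.16, with 15 positive, and over all 17298 genes tested 0.00045, with 50.1% positive. By edgeR's quasi-likelihood test with Benjamini-Hochberg adjustment, 0 of 45 members were called, beside 0.717% of all genes (0.173% higher and 0.543% lower). At an unadjusted p under 0.05 there were 8 members (2 higher, 6 lower), beside 11.6% of all genes. DESeq2 called 2, Cxcl9 and Iigp1, both lower, beside 1.76% of all genes, limma voom 0, beside 0.26%, and edgeR without a low-count filter 6, all lower, beside 2.81%. The groups did not overlap in 13 members, beside 43.0% of all genes. Of the members 3 were higher and 10 lower, beside 21.1% and 21.9%, and 4 of the 10 were of gamma type and 1 of type I type.

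Cxcl9 had the largest difference. The WT recipients had 8.19 and 16.2 CPM and the JAK1 GOF recipients 5.60 and 2.86 CPM. Both GOF libraries lay below both WT libraries, and the WT libraries differed more from each other than WT recipient 1 did from GOF recipient 1. The log2 fold change was −1.50 ± 0.44 (SE; adjusted p = 0.278). Cxcl10 overlapped, at 13.0 and 20.2 CPM against 12.1 and 16.1 CPM (−0.23 ± 0.24; adjusted p = 0.764). Only Cxcl9 of the pair of CXCR3 ligands thus separated the groups.

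The GTPases of the gamma response followed the same sign. Iigp1 had 95.0 and 155 CPM in the WT libraries, against 73.8 and 77.4 CPM in the GOF libraries (−0.72 ± 0.23; adjusted p = 0.282). The GOF libraries were close together and below both WT libraries, which lay far apart. Gbp6 was at 49.95 and 81.5 CPM against 41.9 and 40.7 CPM (−0.66 ± 0.23; adjusted p = 0.328), and Gbp5, a scaffold of inflammasome assembly, at 26.5 and 41.9 against 20.6 and 25.6 CPM (−0.56 ± 0.23; adjusted p = 0.392). Both had GOF libraries below the WT libraries, by a small margin from WT recipient 1. Gbp2 was at 83.2 and 133 CPM against 83.1 and 79.4 CPM (−0.41 ± 0.22; adjusted p = 0.539), so WT recipient 1 was at the level of the GOF libraries. All 6 Gbp members and all 4 immunity-related GTPases were negative, with medians of −0.36 and −0.37. Igtp, at 44.1 and 73.5 against 44.0 and 40.9 CPM, had the same shape.

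The gamma-type difference rested mostly on WT recipient 2. On the log2 scale from the control mean, WT recipient 1 had a gamma-type median of −0.30, close to the GOF libraries at −0.33 and −0.37. Without it, so that the 3 libraries left shared 1 state of the trace transcripts and WT recipient 2 stood alone for its group, 9 of 45 members fell: Cxcl9, Gbp2, Gbp4, Gbp5, Gbp6, Igtp, Iigp1, Irgm2 and Zbp1, a sensor of Z-form nucleic acid. That is 20.0% of the members beside 5.16% of all genes (919 of 17808), and the lone WT library is assumed to vary like the GOF group. The log2 fold changes of these genes included −1.92 for Cxcl9, −1.04 for Iigp1, −0.99 for Gbp6 and −0.72 for Gbp2. The median of the gamma-type members was −0.55 without WT recipient 1 and −0.09 without WT recipient 2. Of the 9 members, 6 were of gamma type and none was of type I type.

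Among the antiviral effectors the signs were mixed. Bst2 had the smallest p of all members; the WT libraries held 84.6 and 92.5 CPM, the GOF libraries 123 and 105 CPM (0.38 ± 0.13; adjusted p = 0.256). The GOF libraries lay above the WT libraries without overlap, as they did for Ifi35, which binds and modulates other interferon-induced proteins, at 47.7 and 52.9 against 59.0 and 61.6 CPM, and for Rtp4. Mx1, a dynamin-like GTPase that traps viral ribonucleoproteins, went the other way, at 16.2 and 13.1 against 8.34 and 11.9 CPM (−0.53 ± 0.21; adjusted p = 0.334). It was the 1 type I-type member whose groups did not overlap. Ifit1 was at 49.4 and 41.1 against 37.4 and 56.5 CPM (0.06 ± 0.19; adjusted p = 0.942), with the 2 GOF libraries on either side of the WT libraries. Irf7, the regulator that amplifies type I interferon, was at 48.3 and 57.3 against 49.9 and 53.6 CPM (−0.02 ± 0.13; adjusted p = 0.968). Ddx60, at 15.0 and 11.7 against 5.69 and 11.2 CPM, was lowest in GOF recipient 1, which also had the lowest Mx1, Rsad2, Zbp1 and Eif2ak2 of the 4 libraries.

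**Figure D2:**
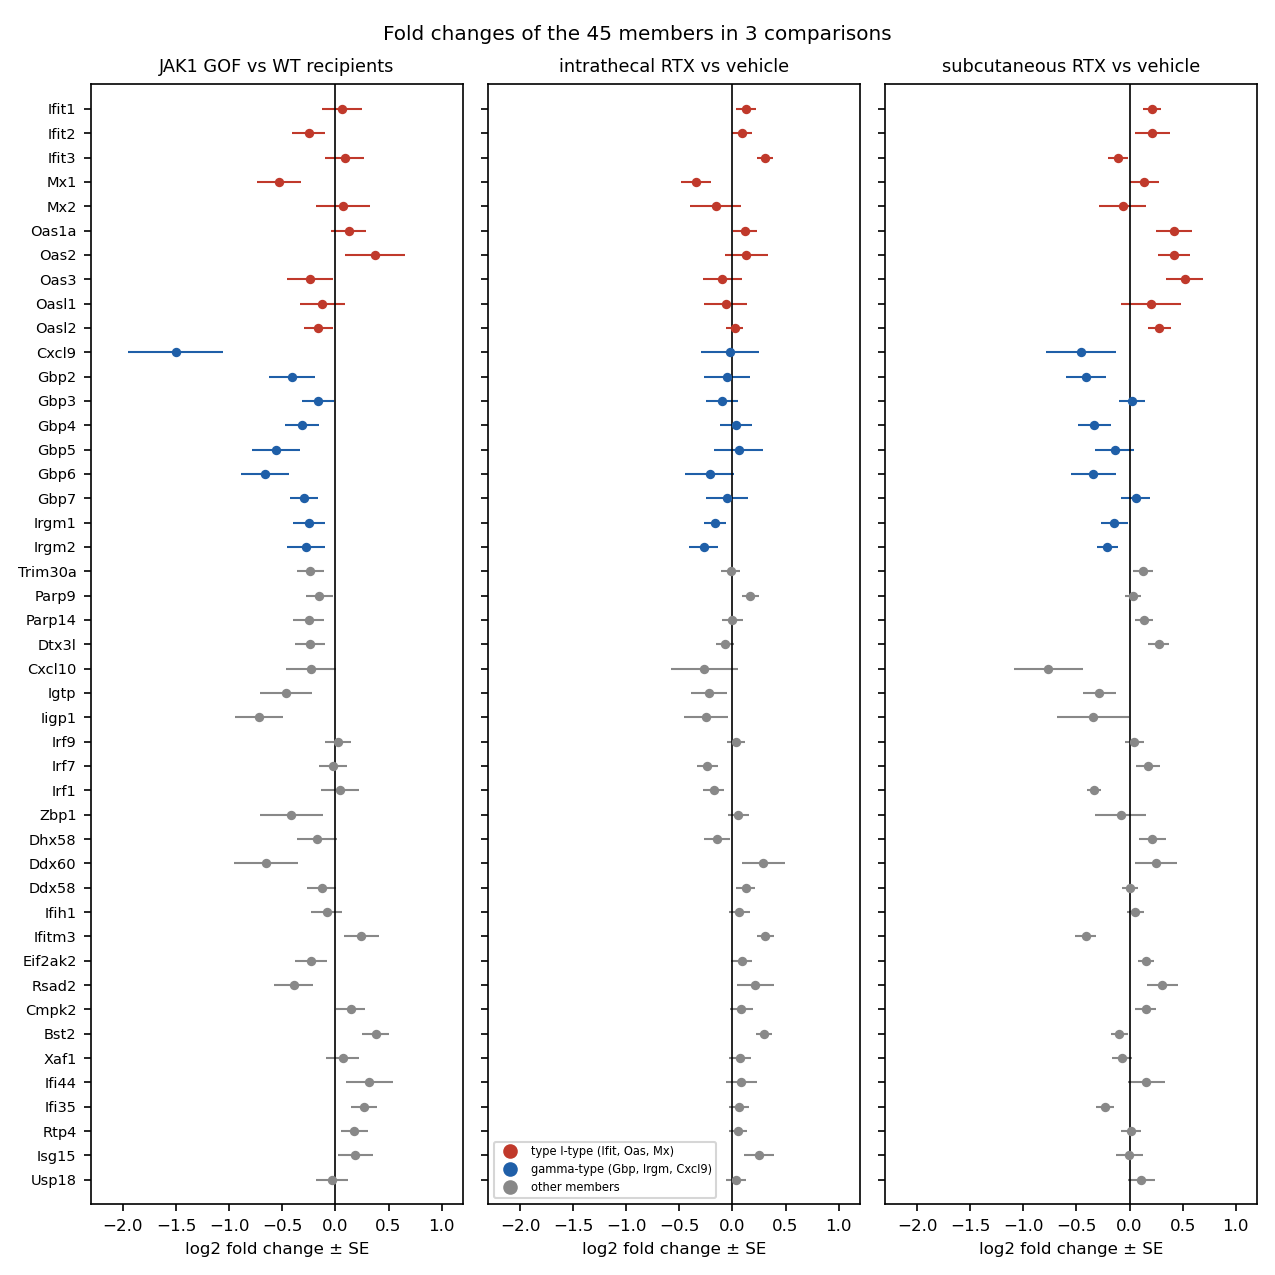
Log2 fold change of each member with its standard error in the 3 comparisons, from edgeR; red is type I type, blue is gamma type and grey is the other members. The 9 gamma-type members lie left of 0 in the recipient comparison, and the 5 Oas members lie right of 0 with subcutaneous RTX; no point passed the test.

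Several lists of blood cell markers were lower in GOF recipients too. The gamma-type median was lower in both GOF libraries (−0.33 and −0.37) than in both WT libraries, with WT recipient 1 (−0.30) close to the GOF libraries. The T cell and natural killer sums also put both WT libraries above both GOF libraries. All 8 T cell markers were lower in GOF recipients (median −0.72, with Cd3e and Cd4 called lower), as were all 8 natural killer cell markers (median −0.56, 0 called). The summed T cell markers spanned 93.5 to 123 CPM in the WT libraries, against 51.2 to 78.1 CPM with the GOF host, and the summed natural killer markers at 39.1 to 42.0 against 16.8 to 32.9 CPM. None of the markers was at 0 in all 4 libraries. All 8 monocyte and interstitial macrophage markers (median −0.29, 1 called lower) and all 8 B cell markers (median −0.65, 1 called lower) were negative too, 6 of 7 tested plasmacytoid dendritic cell markers were negative (median −1.12, 0 called), and all 8 heart muscle markers were positive (median 1.14, 5 called higher). The summed alveolar macrophage markers were at 1238 to 1820 CPM with the WT host and 533 to 543 CPM with the GOF host, but 4 of the 8 markers were positive and 4 negative (median −0.33, 1 called lower). Of the 9 lung markers 8 were positive (median 0.29, 0 called), with sums of 21659 to 23869 CPM with the WT host and 26954 to 28421 CPM with the GOF host. In addition, all 8 neutrophil markers were negative (1 called lower), 7 of 8 endothelial markers were positive (0 called) and all 8 heat shock genes were positive (median 0.56, 0 called). Their part in the values of the interferon-stimulated genes was not tested, and fewer cells of a type and less RNA per cell cannot be told apart in these bulk samples.

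Upstream of the members, the ligands were near the limit of detection in every experiment. Of 21 interferon genes 14 had no count in any of the 14 libraries, 5 reached at most 3 counts and 2 exceeded 3 counts in a library. A count of 0 allows up to the floor of 3 counts, and floors cover counting error only. Ifng, the interferon gamma gene, gave 0.333 and 0.861 CPM in the WT libraries, against 0.403 and 0.165 CPM in the GOF libraries, and was too low to be tested there. The libraries overlapped in order, with WT recipient 2 highest.

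The genes that carry the signal were expressed throughout. Of the 6 receptor chains, 5 kinases and STAT factors, 8 inhibitors and 13 sensors and adaptors, 0 were called in the recipient comparison, and the medians were 0.00399, −0.30, −0.13 and −0.37. All 5 kinases and STAT factors were negative. Mouse Jak1 had 256 and 281 CPM in the WT libraries, against 204 and 191 CPM in the GOF libraries (−0.43 ± 0.13; adjusted p = 0.206), a count of the mouse gene that does not check the human allele. Stat2, a subunit of the type I complex, was at 96.5 and 112 against 84.4 and 108 CPM (−0.11 ± 0.14; adjusted p = 0.824), with the groups overlapping. Irf8, a myeloid factor that acts with Irf1 on gamma targets, was at 93.3 and 108 against 82.6 and 71.6 CPM (−0.37 ± 0.13; adjusted p = 0.278). Socs1, the feedback inhibitor of JAK kinases, was at 6.19 and 11.8 against 8.69 and 4.51 CPM (−0.43 ± 0.42; adjusted p = 0.760), with the groups interleaved. Of 47 other interferon-induced genes tested 37 were negative, with a median of −0.22 and 0 called.

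After intrathecal RTX the medians of both classes lay near 0. The median log2 fold change (RTX minus vehicle) was 0.06 over the type I-type members, −0.05 over the gamma-type members, 0.03 over all 45 (25 positive) and 0.0075 over all 17360 genes tested (51.5% positive). edgeR called 0 of 45 members, beside 0.311% of all genes (0.109% higher and 0.202% lower), and 5 reached an unadjusted p under 0.05 (3 higher, 2 lower), beside 11.5%. DESeq2 called 1, Ifitm3, higher, beside 1.42% of all genes, limma voom 0, beside 0.213%, and edgeR without a low-count filter 2, both higher, beside 2.27%. The groups did not overlap in 5 members that were higher and 3 that were lower in RTX libraries, beside 15.5% and 14.8% of all genes, or 8 in all beside 30.3%. None of the gamma-type members separated the groups.

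The members with the smallest p were 3 antiviral effectors that were higher with intrathecal RTX. Ifit3 was at 67.7 and 70.4 CPM in vehicle libraries and at 83.7, 86.8 and 82.9 CPM in RTX libraries (0.31 ± 0.07; adjusted p = 0.146). Ifitm3 was at 248 and 267 CPM against 318, 322 and 307 CPM (0.31 ± 0.08; adjusted p = 0.175). Bst2 was at 87.3 and 84.3 CPM against 110, 105 and 97.6 CPM (0.30 ± 0.08; adjusted p = 0.188). In each of the 3 genes all RTX libraries lay above both vehicle libraries and the spread within a group was smaller than the gap between groups in Ifit3 and Ifitm3. The trace-transcript state, a split known from earlier work on these data, was added as a term in a fit of all 14 libraries. Ifitm3 was then at −0.064 and the gamma-type median at −0.56. The state term was estimated from the WT recipients and the subcutaneous groups, the only groups whose libraries differed in state. These values thus carry over differences from other experiments and do not separate treatment from state. Parp9, an ADP-ribosyltransferase partner of Dtx3l, had the same order, at 61.0 and 61.5 against 72.8, 65.6 and 65.3 CPM (0.17 ± 0.08; adjusted p = 0.463). Parp9 and Dtx3l overlap in the annotation on opposite strands of chromosome 16, and since the strand setting of the counting is not given, their reads may not be fully told apart. Isg15, a ubiquitin-like protein that is attached to other proteins, also separated the groups, at 17.5 and 20.0 against 20.2, 20.0 and 25.7 CPM, with RTX 2 and vehicle 2 almost equal.

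Mx1 and Irf7 went the other way. Mx1 was at 14.3 and 13.7 CPM in vehicle libraries and at 9.60, 11.0 and 12.1 CPM in RTX libraries (−0.34 ± 0.14; adjusted p = 0.400). Irf7 was at 41.6 and 41.0 against 35.2, 31.0 and 37.5 CPM (−0.24 ± 0.10; adjusted p = 0.405). The RTX libraries lay below both vehicle libraries in both genes. Of the 10 type I-type members 1, Ifit3, was higher without overlap and 1, Mx1, lower, beside 15.5% and 14.8% of all genes. Ifit1 did not separate them, at 35.9 and 41.1 against 40.6, 39.9 and 44.2 CPM (0.13 ± 0.10; adjusted p = 0.649).

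The gamma-type members varied more within the intrathecal groups than between them. Cxcl9 was at 24.0 and 16.3 CPM in vehicle libraries and at 23.8, 21.6 and 13.4 CPM in RTX libraries (−0.02 ± 0.27; adjusted p = 0.984). Gbp2 was at 161 and 123 against 157, 149 and 99.5 CPM (−0.05 ± 0.22; adjusted p = 0.953), and Cxcl10 at 31.2 and 22.0 against 28.5, 23.2 and 14.1 CPM (−0.27 ± 0.32; adjusted p = 0.806). In all 3 genes RTX 3 was the lowest library and vehicle 1 the highest. RTX 3 was also the lowest of the 5 libraries in all 9 gamma-type members. Its gamma-type median stood 0.40 below the mean of the vehicle libraries on the log2 scale, while its type I-type median stood 0.17 above it.

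**Figure D3:**
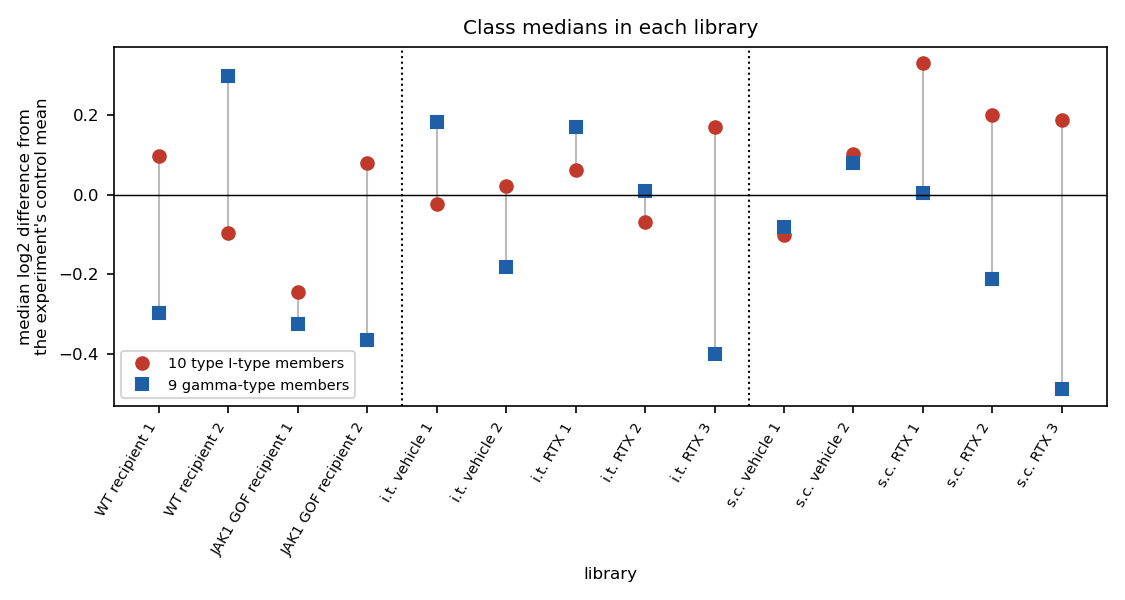
Median over the 10 type I-type members (red circles) and the 9 gamma-type members (blue squares) in each of the 14 libraries. Values are differences in log2(CPM + 0.5), with CPM scaled by TMM, from the mean of the control libraries of the same experiment. The gamma-type median lies below the type I-type median in all 3 subcutaneous RTX libraries, in intrathecal RTX 3, in both JAK1 GOF recipients and in the controls WT recipient 1, intrathecal vehicle 2 and, by 0.02, subcutaneous vehicle 2, and above it in the other 5 libraries. The control libraries of an experiment mirror each other, since both are taken from their own mean.

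The pathway genes gave no call with intrathecal RTX: 0 of 6 receptor chains (median 0.01), 0 of 5 kinases and STAT factors (median 0.02), 0 of 8 inhibitors (median 0.07), 0 of 13 sensors and adaptors (median 0.0041) and 0 of 48 other interferon-induced genes (median 0.02). Ifng was at 0.955 and 0.861 CPM in vehicle libraries and at 0.363, 0.444 and 0.287 CPM in RTX libraries (−1.30 ± 0.44; adjusted p = 0.311). All 3 RTX libraries lay below both vehicle libraries, at 22 counts or fewer in any library. Jak1 (0.04 ± 0.10; adjusted p = 0.915) and Stat2 (−0.12 ± 0.09; adjusted p = 0.645) were not distinguishable between the groups. Neither were Irf8 (−0.07 ± 0.08; adjusted p = 0.791) and Socs1 (−0.03 ± 0.11; adjusted p = 0.937). The summed T cell markers were at 72.7 to 78.0 CPM in vehicle libraries and 75.4 to 122 CPM in RTX libraries (7 of 8 positive, median 0.48, 0 called), and the summed natural killer markers at 21.1 to 29.2 against 21.2 to 35.1 CPM. The heat shock list had 2 members called higher and 2 lower, and its sum was at 4715 to 4838 CPM in vehicle and 3268 to 4009 CPM in RTX libraries. No marker of alveolar macrophages, monocytes, neutrophils, B cells, plasmacytoid dendritic cells, endothelium or heart muscle was called. Their part in the values of the members was not tested.

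With subcutaneous RTX the 2 classes had opposite medians. The median log2 fold change was 0.21 over the type I-type members, 8 of 10 positive, and −0.21 over the gamma-type members, 7 of 9 negative. Over all 45 it was 0.03, with 26 positive, and over all 17363 genes −0.0045, with 49.2% positive. edgeR called 0 of 45 members, beside 0.0% of all genes, and 9 reached an unadjusted p under 0.05 (6 higher, 3 lower), beside 18.2%. DESeq2 called 2, Ifitm3 and Irf1, both lower, a share of 4.44% beside 3.99% of all genes, limma voom 0, beside 0.0%, and edgeR without a low-count filter the same 2, beside 2.81%. The groups did not overlap in 11 members that were higher and 7 that were lower in RTX libraries, beside 18.7% and 19.5% of all genes, or 18 in all beside 38.2%. The type I-type members supplied 5 of the 11 and none of the 7, and the gamma-type members none of the 11 and 2 of the 7. The difference between the classes was not tested, since the members were chosen with results of these data known.

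The Oas genes, which make 2-5A to activate RNase L or are related to those that do, were the family with the most members above the controls. Oas3 was at 6.41 and 7.46 CPM in vehicle libraries and at 11.3, 10.2 and 8.62 CPM in RTX libraries (0.52 ± 0.17; adjusted p = 0.195). Oas2 was at 12.8 and 12.9 against 20.5, 15.5 and 16.1 CPM (0.42 ± 0.15; adjusted p = 0.209). Oas1a was at 12.9 and 18.8 against 22.3, 19.4 and 22.6 CPM and Oasl2 at 52.6 and 65.0 against 78.1, 69.9 and 68.3 CPM. All 3 RTX libraries lay above both vehicle libraries in these 4 genes, and Oasl1 overlapped. All 5 Oas members were positive, with a median of 0.42, and 4 of them reached an unadjusted p under 0.05. Their reads could be shared with other copies of the Oas cluster on chromosome 5, so single members are uncertain. Ifit1 had the same order, at 27.3 and 28.1 against 33.7, 32.0 and 31.5 CPM (0.21 ± 0.08; adjusted p = 0.237). Ifit3 did not, at 55.1 and 63.1 against 58.8, 55.8 and 51.4 CPM.

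Other members above the controls without overlap were Dtx3l, an E3 ubiquitin ligase, at 46.4 and 53.4 against 66.6, 59.5 and 56.8 CPM (0.27 ± 0.10; adjusted p = 0.214), Rsad2 (viperin, which makes a chain-terminating nucleotide), its neighbour Cmpk2, the sensors Ddx60 and Dhx58, and Eif2ak2, the kinase PKR. Irf7 overlapped, at 25.6 and 30.2 against 33.7, 28.4 and 33.3 CPM (0.17 ± 0.12; adjusted p = 0.449).

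Irf1 had the smallest p with subcutaneous RTX and was lower. It was at 150 and 147 CPM in vehicle libraries and at 126, 115 and 117 CPM in RTX libraries (−0.33 ± 0.07; adjusted p = 0.119). Ifitm3 was at 308 and 301 against 258, 226 and 208 CPM (−0.41 ± 0.10; adjusted p = 0.129). Both genes had tight vehicle libraries and RTX libraries that all lay below them. Ifi35 had the same order, at 61.3 and 57.7 against 55.7, 49.8 and 47.9 CPM (−0.23 ± 0.09; adjusted p = 0.225). Bst2 did not separate the groups, at 94.7 and 83.4 against 88.1, 84.1 and 80.1 CPM (−0.10 ± 0.08; adjusted p = 0.552).

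Among the chemokines and GTPases of the gamma response the subcutaneous RTX libraries were spread out. Cxcl10 was at 21.5 and 17.7 CPM in vehicle libraries and at 16.9, 10.46 and 7.47 CPM in RTX libraries (−0.77 ± 0.32; adjusted p = 0.285), with RTX 1 just below the controls and RTX 3 far below. Cxcl9 was at 9.52 and 14.7 against 12.03, 9.04 and 5.70 CPM (−0.45 ± 0.33; adjusted p = 0.497), and Gbp2 at 99.9 and 114 against 102, 78.0 and 64.1 CPM (−0.41 ± 0.19; adjusted p = 0.321). In both RTX 1 lay between the vehicle libraries and RTX 3 was lowest. Iigp1 was at 117 and 116 against 127, 92.0 and 58.3 CPM. Gbp4 and Irgm2 were the 2 gamma-type members whose groups did not overlap. RTX 3 was the lowest library in all 9 gamma-type members, with a gamma-type median 0.49 below and a type I-type median 0.19 above the vehicle mean. In each of the 3 RTX libraries the gamma-type median was below the type I-type median, by 0.33, 0.41 and 0.68. In the vehicle libraries the 2 medians differed by 0.02 either way. The vehicle values mirror each other because both are taken from their own mean. The same gap was 0.40 either way in the WT recipients and 0.20 in the intrathecal vehicle libraries.

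**Figure D4:**
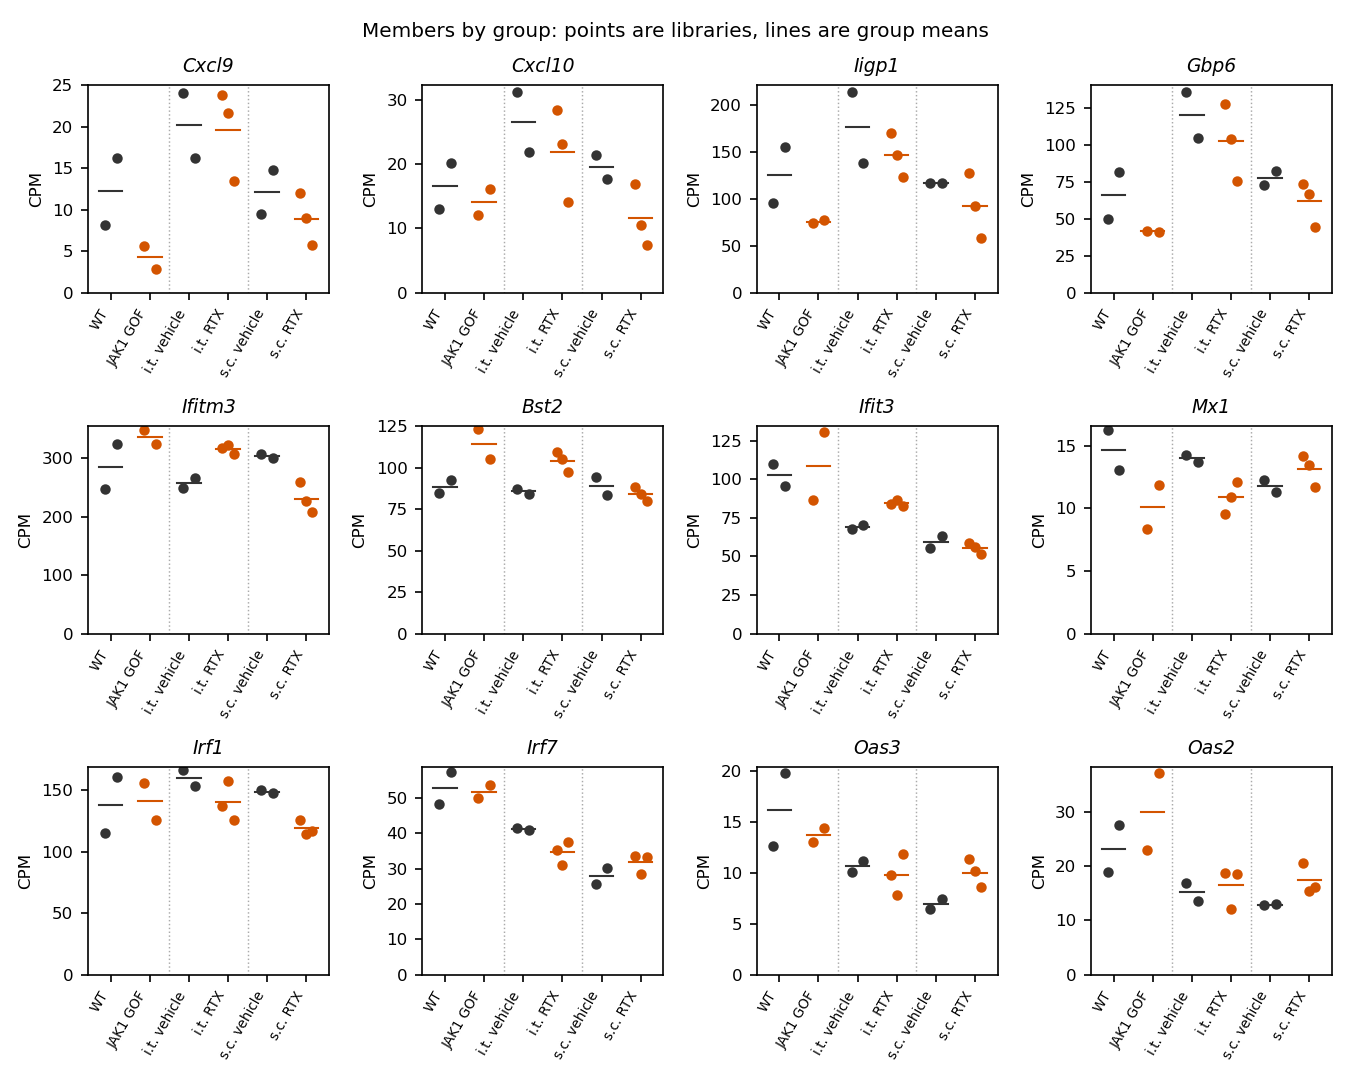
CPM of 12 members in the 6 groups, with each library as a point and the group mean as a line; controls are dark and the compared groups orange, and each vertical axis starts at 0. Ifitm3 is above its controls after intrathecal RTX (307 to 322 against 248 to 267 CPM) and below them after subcutaneous RTX (208 to 258 against 301 to 308 CPM).

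Subcutaneous RTX 1 and vehicle 2 shared 1 state of the trace transcripts and gave a comparison of 1 library with 1, chosen after the data were seen and without a test. On log2(CPM + 0.5) with CPM scaled by TMM, Oas2 stood at 0.63, Oas3 at 0.55, Ifit1 at 0.24, Ifitm3 at −0.24, Irf1 at −0.24, Cxcl9 at −0.30, Cxcl10 at −0.08 and Gbp2 at −0.18. The sign was that of the 5 libraries in 37 of 45 members and the other in 8. Both libraries of the pair are among these 5, so agreement in sign is partly built in and is no separate support. These 8 were Oasl1 (−0.37, against 0.20 over 5 libraries), Iigp1 (0.11, against −0.35), Gbp5 (0.16, against −0.14), Irgm1 (0.05, against −0.14), Zbp1 (0.19, against −0.08), Bst2 (0.06, against −0.10), Isg15 and Ddx58. The RTX library with the lowest gamma-type values was thus not in this pair. A fit of all 14 libraries with this state as a term, estimated from the WT recipients as well, put the gamma-type median at 0.05.

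No pathway gene was called with subcutaneous RTX: 0 of 6 receptor chains (median −0.12), 0 of 5 kinases and STAT factors (all positive, median 0.21), 0 of 8 inhibitors (median 0.13), 0 of 13 sensors and adaptors (median 0.08) and 0 of 48 other interferon-induced genes (median 0.07). Ifng was at 0.271 and 1.09 CPM in vehicle libraries and at 0.696, 0.275 and 0.335 CPM in RTX libraries (−0.63 ± 0.69; adjusted p = 0.660). The vehicle libraries held both the lowest and the highest value. Jak1 was at 211 and 253 against 268, 274 and 268 CPM (0.21 ± 0.09; adjusted p = 0.278). Stat2 (0.10 ± 0.09; adjusted p = 0.575), Irf8 (0.04 ± 0.07; adjusted p = 0.794) and Socs1 (0.20 ± 0.25; adjusted p = 0.707) were not distinguishable. All 9 lung markers were negative (median −0.41, 0 called; 24335 to 32686 CPM in vehicle and 17623 to 20322 CPM in RTX libraries), all 8 heart muscle markers were negative (median −0.88, 0 called) and all 8 B cell markers positive (median 1.06, 0 called). The summed plasmacytoid dendritic cell markers were at 53.2 to 60.8 CPM in vehicle and 72.3 to 86.4 CPM in RTX libraries (5 of 8 positive, 0 called). T cell and natural killer cell markers had medians of 0.08 and −0.02, monocyte markers 0.27, neutrophil markers 0.47, alveolar macrophage markers 0.14, endothelial markers −0.16 and heat shock genes 0.26, with 0 called in each. Their part in the members' values was not tested.

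The RTX effects of the 2 routes were compared directly, as the subcutaneous effect minus the intrathecal one in 1 fit of 10 libraries with each route's own controls. Routes, doses and days of injection differed together. edgeR called 0 of 45 members, beside 0.0556% of all genes (0.0278% in each direction), 9 reached an unadjusted p under 0.05, beside 15.2%. DESeq2 called 1, Ifitm3, beside 1.61% of all genes, limma voom 0, beside 0.0612%, and edgeR without a low-count filter 1, Ifitm3, beside 0.475%. Ifitm3 had the largest contrast, −0.72 ± 0.12 (adjusted p = 0.0786): all 3 RTX libraries lay above their controls by the intrathecal route and all 3 below by the subcutaneous route. Ifit3 was at −0.41 ± 0.11 (adjusted p = 0.167) and Bst2 at −0.39 ± 0.11 (adjusted p = 0.173), the other effectors that were higher with intrathecal RTX. Mx1 was at 0.49 ± 0.19 (adjusted p = 0.261), Irf7 at 0.42 ± 0.16 (adjusted p = 0.258) and Dtx3l at 0.35 ± 0.13 (adjusted p = 0.254). Cxcl9 (−0.42 ± 0.50; adjusted p = 0.730), Cxcl10 (−0.50 ± 0.53; adjusted p = 0.699), Gbp2 (−0.35 ± 0.34; adjusted p = 0.668) and Ifit1 (0.09 ± 0.12; adjusted p = 0.766) had contrasts of about 1 standard error or less. The median contrast was 0.27 over the type I-type members, 9 of 10 positive, and −0.12 over the gamma-type members, 4 of 9 positive, beside 49.3% of all genes. Since the intrathecal groups coincide with the split by trace transcripts, that split and the route contrast cannot be told apart. With the state as a term the gamma-type median turned to 0.72. That term was estimated from the WT recipients and the subcutaneous groups only, so this value does not separate state from route.

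**Figure D5:**
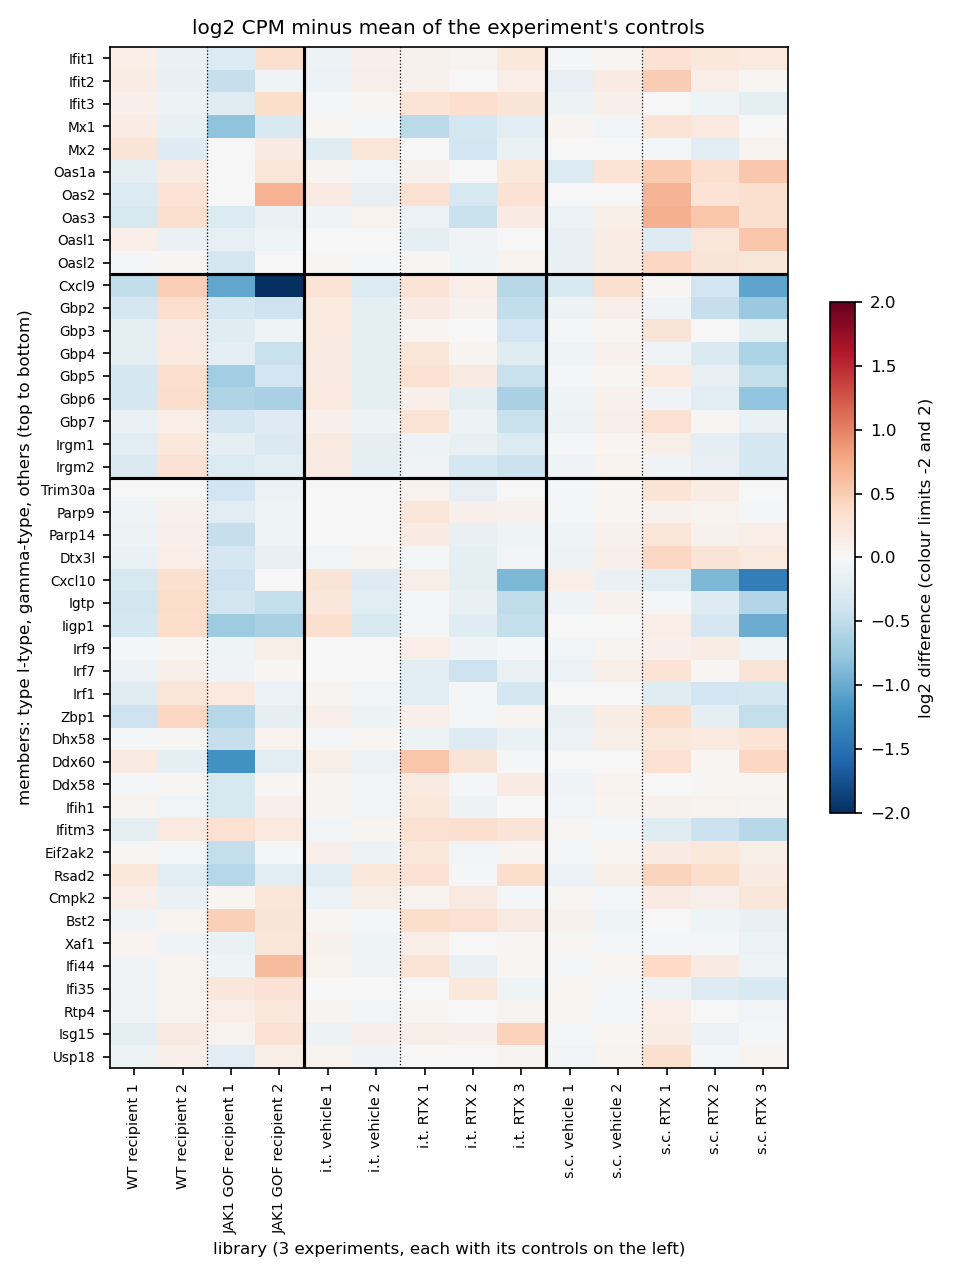
Log2 CPM of each member (lines of the grid) in each library (columns) minus the mean of the control libraries of the same experiment; red is above and blue below, with colour limits of −2 and 2. The gamma-type block is blue in JAK1 GOF recipients, intrathecal RTX 3 and subcutaneous RTX 3, and more faintly in subcutaneous RTX 2 (median −0.21). Among the controls it is blue in WT recipient 1 (median −0.30) and more faintly in intrathecal vehicle 2 (median −0.18). The type I-type block stays pale or turns red in the subcutaneous RTX libraries.

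The control groups themselves differed in these genes. All 10 type I-type members were higher in both WT recipient libraries than in both subcutaneous vehicle libraries (median log2 ratio of group means 0.79), beside 35.2% of all genes, and all 10 were higher in both intrathecal vehicle libraries than in both subcutaneous vehicle libraries (median 0.35), beside 27.0%. WT recipients exceeded intrathecal vehicle in 7 of the 10 (median 0.37), beside 30.3%. For example, Ifit3 had 110 and 95.8 CPM with WT recipients, 67.7 and 70.4 CPM in intrathecal vehicle and 55.1 and 63.1 CPM in subcutaneous vehicle libraries. The gamma-type members had another order: 8 of 9 were higher in intrathecal than in subcutaneous vehicle libraries (median 0.43), 2 of 9 were higher in WT recipients than in subcutaneous vehicle, and none was higher in WT recipients than in intrathecal vehicle without overlap. Irradiation, transplantation, route and volume of injection and the separate experiments stand together between these groups and cannot be told apart, and the tables were quantified as separate files, so these levels are a description.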

How the data were processed

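RNA sequencing of 14 mouse lung libraries was analysed from 3 deposited tables of estimated counts per gene, 1 per experiment, in which 24.2% of the values were not whole. Per the submitters' processing notes the tools were FastQC 0.11.8, Trim Galore 0.6.6, STAR 2.7.5b and Salmon 1.2.1 and the build GRCm38; the sources used here do not give the annotation release or the strand setting. Positions and exon lengths came from GENCODE M21 by identifier (45 of 45 members matched, 43 in the same version). CPM per library used the total count. Class medians per library, the comparison of 1 library with 1 and the overlap of groups within an experiment used CPM scaled by TMM.

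Estimated counts were rounded and fitted per experiment with edgeR 4.0.16 (R 4.3.3), using TMM, filterByExpr (minimum count 10, total 15), glmQLFit with a robust prior and glmQLFTest, two-sided, with Benjamini-Hochberg adjustment over all genes tested and a threshold of 0.05. All 45 members passed the filter in each fit. The route contrast was fitted over 10 libraries. DESeq2 1.42.0 and limma 3.58.1 (voom) were alternatives, beside other scalings, filters and samples. Replicates differed beyond sampling noise (chi-square per degree of freedom 8.91 to 21.3). Same-numbered libraries did not deviate together.

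Values with SE were given for the 6 members with the smallest p per comparison, since none passed, for Cxcl9, Cxcl10, Gbp2, Irf7, Ifit1 and Bst2, and for the pathway genes Ifng, Stat2, Irf8, Socs1 and Jak1. Other members are named by their levels, some after their values were seen. The members were taken by symbol, and they and the lists of pathway genes and cell markers were chosen with earlier results of these data known. 1 gene of the kinase and STAT list is not reported here. The procedure was tested on simulated counts.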

Additional observations from a re-analysis of the deposited data

How the results depend on the processing

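The count of members past the threshold was 0 in each of the 4 comparisons and moved under few alternatives. Without a low-count filter it was 6 for recipients (Cxcl9, Ddx60, Gbp5, Gbp6, Igtp and Iigp1, lower), 2 for intrathecal RTX (Ifit3 and Ifitm3, higher), 2 for subcutaneous RTX (Ifitm3 and Irf1, lower) and 1 for the route contrast (Ifitm3), beside 2.81%, 2.27%, 2.81% and 0.475% of all genes. DESeq2 gave 2, 1, 2 and 1, beside 1.76%, 1.42%, 3.99% and 1.61%, and an adjusted p of 0.1 gave 1 for the route contrast, beside 0.262%. Leaving out 1 library gave 0 to 9 for recipients (9 without WT recipient 1), 0 to 1 for subcutaneous RTX (Oas1a, higher, without vehicle 2, beside 4.81% of all genes) and 0 to 1 for the route contrast (Ifitm3 without subcutaneous RTX 1, beside 0.504%). The median of the type I-type members ranged over −0.26 to 0.072 for recipients, 0.15 to 0.38 for subcutaneous RTX and 0.11 to 0.37 for the route contrast when 1 library was left out. That of the gamma-type members ranged over −0.55 to −0.089, −0.27 to 0.10, −0.33 to −0.12 and −0.31 to 0.069 for recipients, intrathecal RTX, subcutaneous RTX and the route contrast, so its sign turned in the second and the last. A fit of all 14 libraries with the trace-transcript state as a term moved the median of all members to −0.13 for intrathecal RTX and 0.35 for the route contrast, and that of the gamma-type members to −0.56, 0.055 and 0.72 for intrathecal RTX, subcutaneous RTX and the route contrast. It also turned the sign of Ifitm3 with intrathecal RTX (−0.064), of Cxcl9 (0.025) and Bst2 (0.025) with subcutaneous RTX, and of Cxcl9 (0.72), Cxcl10 (0.87), Gbp2 (0.60) and Ifit1 (−0.11) in the route contrast. The state term came from the WT recipients and the subcutaneous groups only, so the intrathecal and route values do not separate state from treatment. The cause was not tested.

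Leaving out 1 library turned the sign of the following log2 fold changes. For recipients the ranges were −0.53 to 0.14 for Cxcl10, −0.16 to 0.12 for Irf7, −0.27 to 0.32 for Ifit1, −0.30 to 0.049 for Stat2 and −0.998 to 0.13 for Socs1. For intrathecal RTX they were −0.27 to 0.27 for Cxcl9, −0.50 to 0.00048 for Cxcl10, −0.23 to 0.15 for Gbp2, −0.16 to 0.018 for Irf8, −0.10 to 0.031 for Socs1 and −0.048 to 0.11 for Jak1. For subcutaneous RTX they were −1.33 to 0.66 for Ifng and −0.13 to 0.63 for Socs1, while Cxcl9 kept its sign at −0.74 to −0.10. In the route contrast they were −0.014 to 0.19 for Ifit1, −0.026 to 1.97 for Ifng and −0.10 to 0.67 for Socs1. The labels do not say whether equal replicate numbers pair libraries. With the number as a replicate block 0 members were called in each comparison. All genes called were then 123, 50, 0 and 7 in place of 124, 54, 0 and 10. With intrathecal RTX the signs of Cxcl9 (0.21), Gbp2 (0.13) and Socs1 (0.029) turned under this block. The ISRE letters with a further C in the whole promoter entry were in 17 of 33 members, beside 0.819% of all promoters. With 2 or 3 libraries per group, precision was limited by the spread between libraries. The members lay above the floor of 3 counts, but the part of counting error in their spread was not measured.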
